A study of Mus musculus with 13 samples.

Results

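The genes described here are 28 members of cholesterol synthesis and its regulation in mouse abdominal epidermis, chosen by name. They comprise 19 enzymes of the route from acetyl units to cholesterol, 5 regulators of the sterol response, and 4 genes of sterol transport, storage and efflux. All 28 had a row in the bulk table of 21950 genes and in the single-cell matrices of 28693 genes. The bulk libraries came from CD49f-positive, CD34-negative interfollicular basal cells sorted from abdominal skin of C57BL/6 mice, in 3 groups of 3 libraries. The first group was K14creERT2;Tbx3flox/flox mice (Tbx3 cKO) at gestation day 16 (dpc16), in which a tamoxifen-activated recombinase under the keratin 14 promoter acts on floxed Tbx3 alleles. The others were wild-type (WT) mice at dpc16 and WT non-pregnant (NP) mice. Single-cell libraries were made from whole abdominal epidermis of Tbx3creERT2; R26H2B EGFP mice given tamoxifen, with 1 library for each of 4 states: NP, dpc16, dpp6 and dpp40, the last 2 being post-partum days 6 and 40. These mice carry a recombinase driven from Tbx3 and a reporter, and all 4 states share that genotype. The sources used here give neither the ages of the mice nor the animals behind a library, nor a tamoxifen schedule for the bulk mice.

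Cells build cholesterol from acetyl-CoA in steps: a mevalonate arm, an isoprenoid arm that also feeds protein prenylation, a squalene arm, and a sterol arm that trims lanosterol to cholesterol. The pathway is set by SREBP transcription factors (Srebf1, Srebf2), which the escort protein Scap carries to the Golgi when sterols are low and which Insig1 and Insig2 hold back when sterols are high. Sterol excess is read by LXR receptors, of which Nr1h2 is one, and these drive the exporter Abca1. In epidermis, cholesterol is a main lipid of the barrier, and sebaceous glands make large amounts of lipid for secretion.

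Promoter windows are shown for 3 members. These are Hmgcs1, an SREBP target whose groups were apart in each bulk contrast, and Abca1 and Sc5d, the members that passed the test on Tbx3 loss. The sequences are the 250 bases before the RefSeq transcript start on GRCm38.p6, 5′ to 3′ on the gene's strand, at chr13:119690101-119690350 (plus strand) for Hmgcs1, chr4:53159896-53160145 (minus strand) for Abca1 and chr9:42264301-42264550 (minus strand) for Sc5d. Capitals mark matches on either strand to TCACNCCAC (an SREBP element), CCAAT (NF-Y), GGGCGG (Sp1), AGGTGTGA (T-box) and AGGTCA (the core hexamer of LXR elements).
Hmgcs1: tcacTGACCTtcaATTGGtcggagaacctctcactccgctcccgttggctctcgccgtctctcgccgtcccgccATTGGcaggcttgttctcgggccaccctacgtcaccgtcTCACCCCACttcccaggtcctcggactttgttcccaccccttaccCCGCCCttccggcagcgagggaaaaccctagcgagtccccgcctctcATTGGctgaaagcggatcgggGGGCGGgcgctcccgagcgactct
Abca1: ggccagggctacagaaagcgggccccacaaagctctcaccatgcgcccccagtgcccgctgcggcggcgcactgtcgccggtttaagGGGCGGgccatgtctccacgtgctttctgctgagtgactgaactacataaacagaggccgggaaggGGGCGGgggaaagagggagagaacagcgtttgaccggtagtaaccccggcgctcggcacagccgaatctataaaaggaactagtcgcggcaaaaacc
Sc5d: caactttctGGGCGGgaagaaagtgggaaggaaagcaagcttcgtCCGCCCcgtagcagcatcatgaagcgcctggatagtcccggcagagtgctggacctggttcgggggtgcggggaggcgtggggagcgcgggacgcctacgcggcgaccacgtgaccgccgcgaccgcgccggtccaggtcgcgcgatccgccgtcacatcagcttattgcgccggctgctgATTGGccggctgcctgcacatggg
The Hmgcs1 window held a TCACNCCAC match at bases -137 to -129 and 3 CCAAT matches, all 3 on the opposite strand. Abca1 held 2 GGGCGG matches, and Sc5d held 1 CCAAT and 2 GGGCGG matches. Only these exact letters were searched (N being any base), so variants of an element stay unmarked. The lack of an AGGTCA match in the Abca1 window thus does not show that it lacks an LXR element. Promoters of 24 members, 32 windows in all, were in the RefSeq table. CCAAT was in 21 of these 32 windows, against 33.8% of all 32851 windows, and GGGCGG was in 23 of 32, against 32.7%. TCACNCCAC was found in Hmgcs1 alone of the 24 members, against 1.05% of all windows. AGGTGTGA was in no member window and in 1.12% of all windows. AGGTCA was in 5 of the 32 member windows, those of Dhcr7, Hmgcs1 and Insig1, and in 14.02% of all windows.

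Summed FPKM lay between 785636 and 847693 per bulk library, and the read depth behind them is unknown. Tbx3 itself held 4.81, 1.65 and 4.89 FPKM in Tbx3 cKO libraries, against 16.96, 15.3 and 22.98 FPKM in WT dpc16 libraries. The sort label was checked with 11 basal interfollicular markers, which summed to 22828 to 40017 FPKM per library, while 6 of 10 sebaceous markers were under 1 FPKM in every library. The single-cell libraries held 6635 to 12984 barcodes, of which 6491 to 12853 were kept, with a median of 4448 to 5638 UMIs (counted molecules) per cell. The kept cells numbered 36927 of 37686, close to the 36912 that the submitters state. Between 75 and 154 barcodes were shared by each pair of libraries.

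In basal cells at dpc16, Tbx3 loss went with more RNA of the cholesterol exporter Abca1 and less of Sc5d, the desaturase of a late sterol step. Of the enzymes, 7 had a higher and 12 a lower mean log2 value, and the median difference of the 19 was -0.20 on the log2(FPKM + 1) scale. Of the 28 members, 27 had a mean of at least 1 FPKM and were tested, and 2 of them (7.41%) passed in limma at a Benjamini-Hochberg adjusted p of 0.05, where 2.15% of all 11497 genes did. In 6 of the 27 members (22.2%) the 3 Tbx3 cKO and 3 WT dpc16 values did not overlap, against 26.2% of all genes. Of these 2 were higher and 4 lower, against 13.3% and 12.9% of all genes, and 5 members had an unadjusted p under 0.05, against 17.4% of all genes. P-values measure the spread between libraries only, which may be technical.

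Abca1 (chromosome 4, 53030787 to 53159895, GRCm38) held 27.4, 21.9 and 21.7 FPKM in Tbx3 cKO libraries, against 11.1, 9.04 and 9.57 FPKM in WT dpc16 libraries. Every Tbx3 cKO value was above every WT dpc16 value. The means were 23.7 ± 3.26 and 9.90 ± 1.07 FPKM (SD, n = 3 each), a log2 difference of 1.18 ± 0.22 (SE; adjusted p = 0.0312, limma). NP libraries held 7.996, 6.81 and 12.6 FPKM of Abca1. The call held in 9 of 15 alternatives. It was lost without any 1 of the 3 WT dpc16 libraries or without Tbx3 cKO library 1 or 2, with a highest adjusted p of 0.125 (limma). With all genes tested and no filter on low FPKM, the adjusted p was 0.0738.

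Sc5d (chromosome 9, 42251595 to 42264256, GRCm38) held 7.17, 10.9 and 7.90 FPKM in Tbx3 cKO libraries, against 15.6, 17.2 and 18.6 FPKM in WT dpc16 libraries. These groups were also apart. Sc5d fell by 0.93 on the log2 scale (SE 0.19, adjusted p = 0.0418, limma), with means of 8.65 ± 1.96 and 17.2 ± 1.51 FPKM (SD, n = 3 each). Its call held in 6 of 15 alternatives, and in only 2 of the 9 fits that left out 1 library, those without NP library 3 or Tbx3 cKO library 2. Elsewhere the adjusted p reached 0.147 without WT dpc16 library 2 (limma).

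Sqle and Hmgcs1 missed the threshold with groups that did not overlap. Sqle, the epoxidase that commits squalene to sterols, held 2.49, 4.78 and 3.27 FPKM in Tbx3 cKO libraries, against 9.07, 7.97 and 5.96 FPKM in WT dpc16 libraries, a log2 difference of -0.96 ± 0.24 (SE; adjusted p = 0.0698, limma). Hmgcs1, the synthase that follows Acat2 in the mevalonate arm, held 189.9, 199.5 and 186 FPKM in Tbx3 cKO libraries, against 135, 128 and 126 FPKM in WT dpc16 libraries. Its log2 difference was 0.56 ± 0.14 (SE; adjusted p = 0.068, limma). Sqle was thus lower and Hmgcs1 higher in every Tbx3 cKO library than in any WT dpc16 library.

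**Figure D1:**
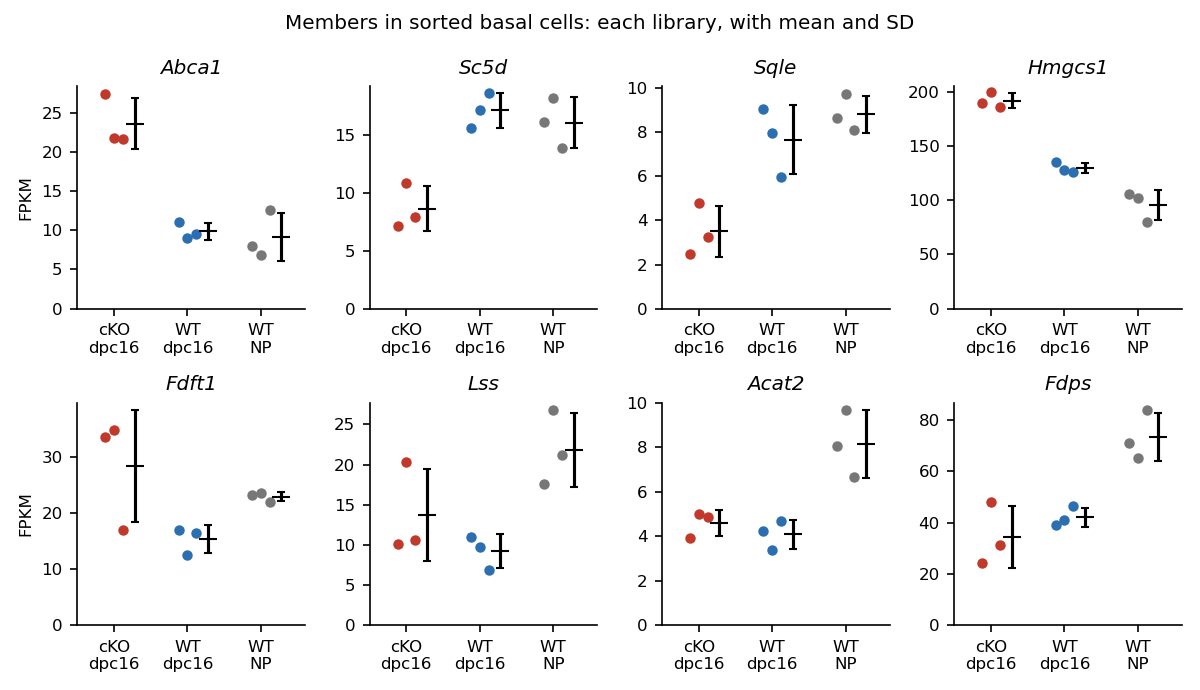
FPKM of 8 members in each bulk library (points) with the mean and SD of 3 libraries (black), by group. Abca1 was above 21 FPKM in all Tbx3 cKO libraries and under 13 FPKM in all WT ones, and Hmgcs1 was ordered Tbx3 cKO, WT dpc16, WT NP with no overlap.

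The remaining enzymes spread around 0. In the sterol arm 7 of 8 enzymes had a lower mean log2 value in Tbx3 cKO than in WT dpc16 libraries, with a median difference of -0.42, and Sc5d alone of them passed. Tm7sf2, a sterol reductase, and Mvd, a decarboxylase of the mevalonate arm, had groups apart on the low side with adjusted p = 0.334 and 0.430 (limma). Fdft1, which makes squalene, held 33.6, 35.0 and 16.98 FPKM in Tbx3 cKO libraries, against 17.1, 12.5 and 16.5 FPKM in WT dpc16 libraries. The third Tbx3 cKO library lay within the WT range, and the adjusted p was 0.144 (limma). Exons of Fdft1 overlap those of Ctsb on the opposite strand, those of Tm7sf2 overlap Vps51 on the same strand, and those of Cyp51 overlap Akap9. In all, 10 members share exon bases with another annotated gene, Hmgcs1, Idi1, Fdps, Ggps1, Lss, Srebf1 and Scap being the others. No source used here states whether counting was by strand, so reads of these genes may be shared.

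No regulator passed the test. Srebf2, the SREBP of the cholesterol branch, averaged 35.0 ± 4.61 FPKM in Tbx3 cKO and 33.9 ± 2.06 FPKM in WT dpc16 libraries, and Scap averaged 104 ± 19.8 and 106 ± 27.4 FPKM (SD, n = 3 each). Srebf1 held 189, 172 and 99.9 FPKM in Tbx3 cKO libraries, against 138, 78.5 and 88.4 FPKM in WT dpc16 libraries, which overlap (adjusted p = 0.289, limma). Insig1 ranged from 6.17 to 21.4 FPKM in Tbx3 cKO and from 4.67 to 23.1 FPKM in WT dpc16 libraries, with a log2 difference of -0.16 ± 0.52 (SE). Soat1, which esterifies cholesterol for storage, was under the filter, with 1.32, 0 and 0.628 FPKM in Tbx3 cKO libraries and 0.367, 0.00824 and 0.0319 FPKM in WT dpc16 libraries.

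**Figure D2:**
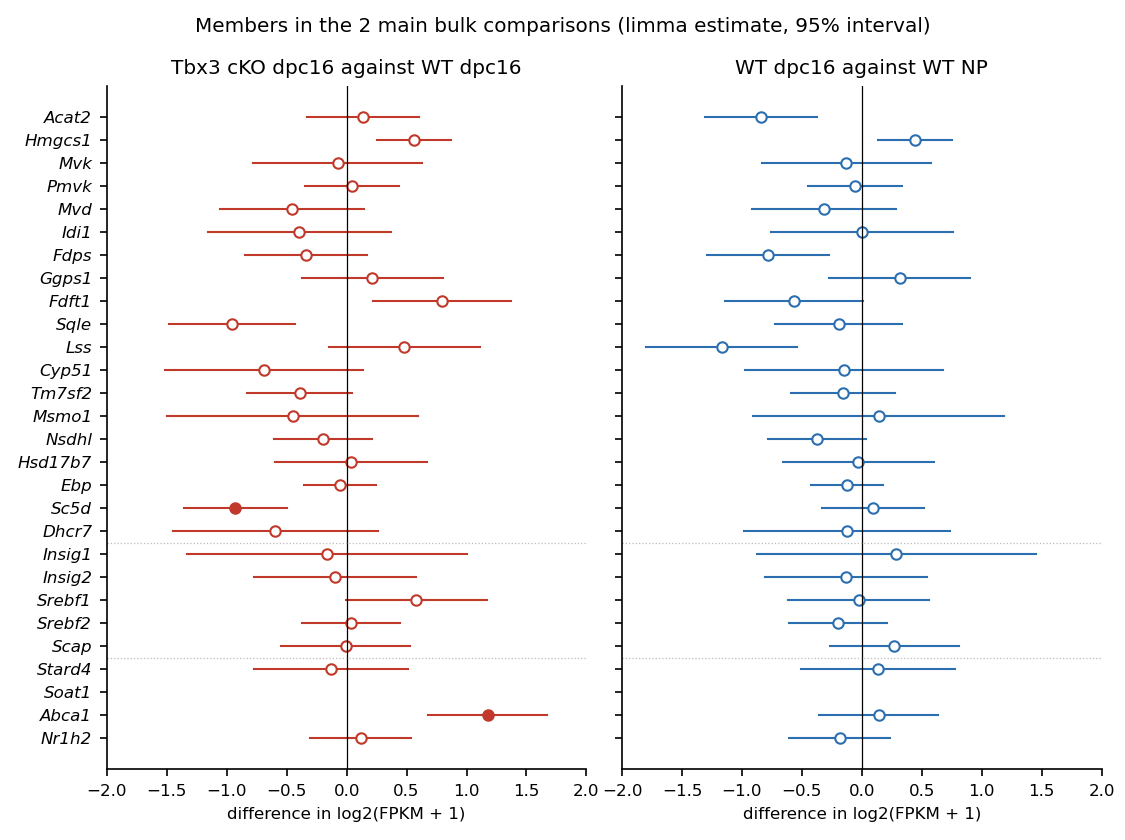
Difference in log2(FPKM + 1) of each member with its 95% interval from limma, for Tbx3 cKO dpc16 against WT dpc16 (left) and WT dpc16 against WT NP (right). Filled points passed an adjusted p of 0.05, which only Abca1 (1.18) and Sc5d (-0.93) did on the left and no member on the right, and dotted lines separate enzymes, regulators and transport genes.

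Sums of cell-type marker lists moved with the same contrast. Spinous markers summed to 3321 to 4737 FPKM in Tbx3 cKO libraries and 5014 to 14077 FPKM in WT dpc16 libraries, with all 8 above 1 FPKM in some library. The 8 bulge and outer root sheath markers summed to 852 to 903 FPKM in Tbx3 cKO libraries and 586 to 687 FPKM in WT dpc16 libraries, and the 11 basal markers to 22828 to 30698 and 33517 to 37751 FPKM. The 7 T cell markers found summed to 121 to 644 FPKM in Tbx3 cKO libraries and 670 to 855 FPKM in WT dpc16 libraries, with 3 under 1 FPKM in every library. The T cell list includes Thy1, which was also among the top genes of a basal cluster in an alternative clustering of the single cells. The sum of this list is therefore not specific to T cells. In these 4 lists the groups did not overlap. The 10 sebaceous markers summed to 42.1 to 129 FPKM in Tbx3 cKO libraries and 60.4 to 84.5 FPKM in WT dpc16 libraries. Their part in the differences of Abca1, Sc5d, Sqle and Hmgcs1 was not tested, and in bulk RNA fewer cells of a type and less RNA per cell cannot be told apart.

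Among 12 further genes of sterol efflux, storage and release, 10 were tested, and 1 rose and 1 fell in Tbx3 cKO libraries. Abcg1, an exporter that is also an LXR target, held 27.9, 16.3 and 16.3 FPKM in Tbx3 cKO libraries, against 10.0, 7.83 and 9.60 FPKM in WT dpc16 libraries (log2 difference 1.02 ± 0.22 SE, adjusted p = 0.0464, limma). Abca2, a lysosomal lipid transporter, held 17.8, 19.1 and 15.6 FPKM in Tbx3 cKO libraries, against 32.4, 36.9 and 29.2 FPKM in WT dpc16 libraries (log2 difference -0.87 ± 0.16 SE, adjusted p = 0.025, limma). Mylip, an LXR-driven ubiquitin ligase, and Npc1, which exports lysosomal cholesterol, were higher without overlap at adjusted p = 0.0514 and 0.0662. Their means were 36.2 ± 9.14 and 57.3 ± 14.3 FPKM in Tbx3 cKO libraries, against 19.2 ± 2.38 and 29.9 ± 5.85 FPKM in WT dpc16 libraries (SD, n = 3 each, limma). The 2 calls are 20% of the 10 genes tested, against 2.15% of all genes. In the whole list 4 genes were higher and 2 lower without overlap, against 13.3% and 12.9% of all genes, and its median log2 difference was 0.21, with 0.01 for all genes. In fatty acid synthesis none of 12 tested genes passed, while Scd1, Fads1, Me1, Acsl3 and Pnpla3 were higher and Acly and Fasn lower without overlap (58.3% of the 12, against 26.2% of all genes). The smallest adjusted p among them was 0.0832, for the desaturase Fads1 (limma). No gene passed among 12 of SREBP processing, 12 that use isoprenoids and 4 of oxysterol and sulfate metabolism.

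In pregnancy, no member changed by the test. Set against NP libraries, the WT dpc16 libraries gave adjusted p-values of 0.192 or more for all 27 members tested (limma), and 4 had an unadjusted p under 0.05, against 9.05% of all genes. Of all genes 0.13% passed, so the comparison called few genes of any kind. The groups did not overlap in 6 members (22.2%), against 15.6% of all genes, with Hmgcs1 higher and Acat2, Fdps, Fdft1, Lss and Nsdhl lower at dpc16. Over all genes 6.82% were higher and 8.77% lower in this way. Medians were -0.12 over the members and -0.03 over all genes on the log2 scale.

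Lss, which closes squalene epoxide into lanosterol, held 10.9, 9.78 and 6.84 FPKM in WT dpc16 libraries, against 17.6, 26.7 and 21.2 FPKM in NP libraries (log2 difference -1.17 ± 0.28 SE, adjusted p = 0.192, limma). Acat2, the cytosolic thiolase that joins acetyl units, held 4.21, 3.37 and 4.66 FPKM in WT dpc16 libraries, against 8.03, 9.69 and 6.65 FPKM in NP libraries (log2 difference -0.84 ± 0.21 SE, adjusted p = 0.201, limma). Fdps, the farnesyl diphosphate synthase, held 39.2, 41.0 and 46.3 FPKM in WT dpc16 libraries, against 71.2, 65.4 and 83.8 FPKM in NP libraries (adjusted p = 0.286, limma). All 3 enzymes had each dpc16 library under each NP library. Hmgcs1 went the other way, with 105, 102 and 79.9 FPKM in NP libraries and a log2 difference of 0.44 ± 0.14 (SE; adjusted p = 0.326, limma). Cycling markers summed to 123 to 317 FPKM in WT dpc16 libraries and 218 to 364 FPKM in NP libraries, and spinous markers to 5014 to 14077 and 7892 to 9352 FPKM. Their part in these values was not tested.

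Set against NP, the Tbx3 cKO libraries gave 5 calls among the 27 members (18.5%), where 5.66% of all genes passed. This contrast shares its libraries with the preceding 2 and joins a genotype and a pregnancy difference. The groups did not overlap in 9 members (33.3%), against 26.4% of all genes. Hmgcs1 rose by 1.004 ± 0.14 (SE; adjusted p = 0.00671) and Abca1 by 1.32 ± 0.22 (SE; adjusted p = 0.0136) on the log2 scale in limma. Fdps fell by 1.12, Sqle by 1.15 and Sc5d by 0.84 (adjusted p = 0.0252, 0.0261 and 0.0368, limma). Mean Hmgcs1 was 192 ± 6.88 FPKM in Tbx3 cKO libraries and 95.8 ± 13.9 FPKM in NP libraries, and mean Fdps was 34.4 ± 12.2 and 73.4 ± 9.44 FPKM (SD, n = 3 each). The Hmgcs1 call held in all 15 alternatives and the Abca1 call in 14, failing without Tbx3 cKO library 1 (adjusted p = 0.0618, limma). Without that library Fdps, Sqle and Sc5d also missed the threshold, at adjusted p = 0.0794, 0.0958 and 0.128 (limma). The Fdps and Sqle calls were lost too without any 1 of the NP libraries (adjusted p of up to 0.0727 and 0.0794, limma), and Sc5d passed in 1 of the 9 fits with a library left out, without Tbx3 cKO library 2. Companion genes that fell in this contrast were the desaturase Scd2, at 2.01 ± 0.831 FPKM in Tbx3 cKO and 8.48 ± 0.591 FPKM in NP libraries, the LXR gene Nr1h3 and the sterol-regulated Tmem97. Their log2 differences were -1.70, -1.70 and -0.82 (adjusted p = 0.0181, 0.0278 and 0.0372, limma).

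In single cells the members were measured by cell class. The 36927 cells formed 24 clusters, grouped into 12 classes named from marker lists, with 851 cells left unnamed. Members were kept out of the clustering. Levels are UMIs per 10000 of all UMIs of a class, with 95% exact Poisson intervals that cover counting error only, and no test is possible with 1 library per state. In every state the 19 enzymes together were highest in sebaceous-like or late spinous-like cells and low in basal-like and follicle cells. At NP their sum was 24.2 in sebaceous-like cells (interval 23.3 to 25.2), 14.8 in late spinous-like cells (14.4 to 15.2), 12.2 in granular-like cells (11.7 to 12.6), 6.46 in early spinous-like cells and 4.30 in basal-like cells (4.13 to 4.46). The order of the top 2 classes depended on the cell filter: over the 4 libraries together the sum was 23.7 in sebaceous-like and 16.5 in late spinous-like cells, but 12.3 and 16.97 among cells with at least 1000 UMIs and at most 5% mitochondrial UMIs. Sostdc1 upper follicle-like cells were lowest in all 4 libraries, at 2.67 to 3.33.

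**Figure D3:**
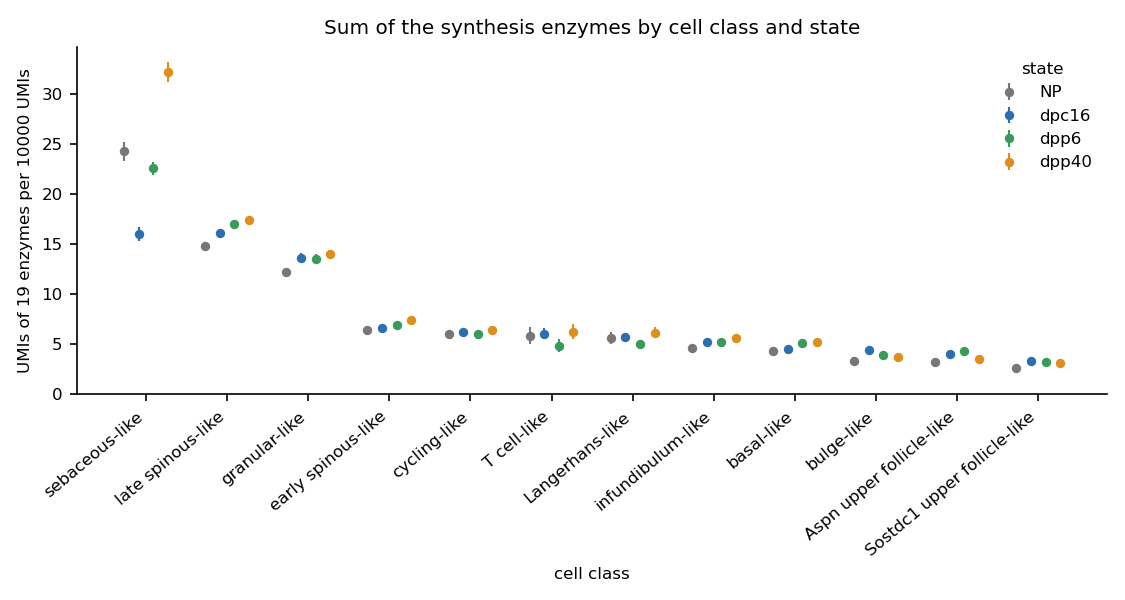
Summed UMIs of the 19 synthesis enzymes per 10000 UMIs in each cell class, with 1 point per state and 95% Poisson intervals (counting error only). Sebaceous-like cells ran from 16.0 (dpc16) to 32.1 (dpp40), late spinous-like cells from 14.8 to 17.3, and the other classes outside granular-like cells lay under 8.

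The higher level in late spinous-like cells covered most of the route. In late spinous-like cells 18 of 19 enzymes were above the basal-like level in each of the 4 libraries, where 39.1% to 48.7% of all genes were. Fdps had a median over libraries of 5.30 UMIs per 10000 in late spinous-like cells, against 0.515 in basal-like cells, with 4.98 to 5.54 across the 4 libraries. Mvd, Sqle and Mvk were 8.87, 8.10 and 6.22 times the basal-like level. Ggps1, which diverts farnesyl units to geranylgeranyl diphosphate, was the exception at 0.58 times. Late spinous-like cells also held more RNA, with a median of 11670 to 15494 UMIs per cell, against 3918 to 5248 in basal-like cells. Among cells with 5000 to 10000 UMIs the enzyme sum was 14.5 in late spinous-like and 5.21 in basal-like cells, a ratio of 2.78, against 3.44 over cells of all depths. Doublets were not removed, and their part was not tested.

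Granular-like cells stood out for Dhcr7, the reductase of the last step from 7-dehydrocholesterol. Dhcr7 held 2.04 UMIs per 10000 there as a median of 4 libraries (1.26 to 2.48), against 0.480 in late spinous-like and 0.175 in basal-like cells. The dpc16 library was lowest, at 1.26, with 2.19 at NP, 2.48 at dpp6 and 1.90 at dpp40. Stard4, a cytosolic sterol carrier, was 4.44 times the basal-like level in late spinous-like cells. Insig2 instead peaked in infundibulum-like cells, at 1.54 and within 1.27 to 2.10 across libraries, against 0.466 in basal-like cells.

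By median over libraries, sebaceous-like cells were the top class for 12 of the 19 enzymes, 9 of them in all 4 libraries, and for 4 of the 5 regulators. Mvd was 25.8 times, Acat2 16.99 times and Lss 15.8 times the basal-like level there. Srebf1, the SREBP of fatty acid genes, held 1.07 UMIs per 10000 in sebaceous-like and 0.169 in basal-like cells, and Abca1 held 1.27 and 0.166. Soat1 had a median of 2.69 in sebaceous-like cells, with 346, 261, 398 and 557 UMIs from NP to dpp40. Its level was 0.645 in Langerhans-like and 0.00763 in basal-like cells. The late sterol enzymes departed from this pattern: Sc5d gave 2, 4, 4 and 10 UMIs in sebaceous-like cells from NP to dpp40, a median level of 0.0263, against 0.192 in basal-like cells. Dhcr7 was likewise lower in sebaceous-like than in basal-like cells, at 0.0934 and 0.175, and Ebp, the sterol isomerase before Sc5d, was close to equal at 0.537 and 0.519.

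**Figure D4:**
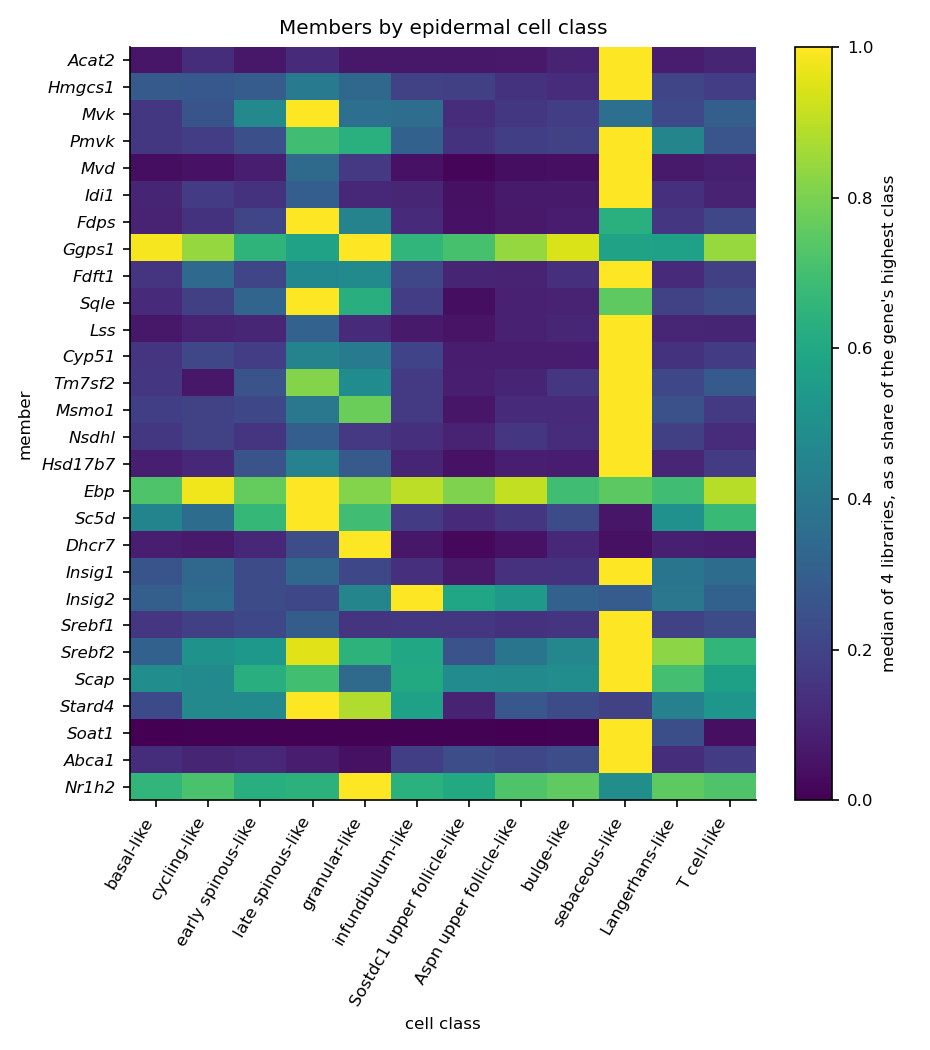
Median level over the 4 libraries of each member (rows) in 12 cell classes (columns), as a share of that member's highest class (colour, 0 to 1). Sebaceous-like cells are the highest class for most rows, while Fdps, Sqle, Mvk and Sc5d peak in late spinous-like and Dhcr7 in granular-like cells.

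The enzyme sum differed most between states in sebaceous-like cells. Synthesis enzymes summed to 24.2 at NP, 16.0 at dpc16, 22.5 at dpp6 and 32.1 at dpp40, in 155, 209, 268 and 164 cells. At dpc16, 10 of 20 members with at least 50 UMIs in the higher state were at least 1.5 times lower than at NP and none was that much higher, where 9.87% of all genes were lower and 8.70% higher by this rule. Fdps held 3.93 at NP, 2.12 at dpc16, 2.82 at dpp6 and 3.92 at dpp40, and Mvd held 1.12, 0.547, 0.989 and 1.67. Both were lowest at dpc16. Relative to NP, Lss stood at 0.45, Mvd at 0.49, Fdft1 at 0.50, Fdps at 0.54 and Msmo1, a demethylating oxidase, at 0.55 times the NP level. The Lss interval was 0.28 to 0.71. Srebf1 was level between these states, at 0.99 times (0.77 to 1.29), and Srebf2 stood at 0.65 times (0.43 to 0.99). At dpp6 Soat1 alone met the rule, at 0.62 times, with 3.17% of all genes lower and 5.45% higher. Msmo1 held 2.05 at NP, 1.12 at dpc16, 2.43 at dpp6 and 4.73 at dpp40, the highest of its 4 values. At dpp40 4 members were at least 1.5 times higher than at NP, and none lower, where 5.57% and 3.58% of all genes were: Msmo1 2.31, Insig1 2.31, Sqle 1.74 and Idi1 1.51 times.

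Over all sebaceous-like cells, the sebaceous marker level had the same order of states as the enzyme sum, but not under a stricter cell filter. The 10 sebaceous markers, none of which is a member, summed to 54.9, 42.7, 51.6 and 58.8 UMIs per 10000 at NP, dpc16, dpp6 and dpp40. The median mitochondrial share was 5.36%, 5.29%, 6.17% and 5.07%, which did not follow that order. Keeping only cells with at least 1000 UMIs and at most 5% mitochondrial UMIs left 69, 97, 82 and 81 sebaceous-like cells, whose enzyme sums were 14.7, 9.25, 11.2 and 14.8. The removed cells carried more, at 32.4, 24.1, 28.2 and 49.4. Under that filter dpp40 was 1.01 times NP, so the higher dpp40 level was not seen in the kept cells, while dpc16 was lower in kept and removed cells alike. In the kept cells the sebaceous markers summed to 42.9, 37.8, 32.8 and 38.0 from NP to dpp40, lowest at dpp6 and not at dpc16. The 13 genes of fatty acid synthesis gave 55.1, 31.3, 56.2 and 95.2 in the whole sebaceous-like class, in the same order of states as the enzymes apart from NP and dpp6.

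**Figure D5:**
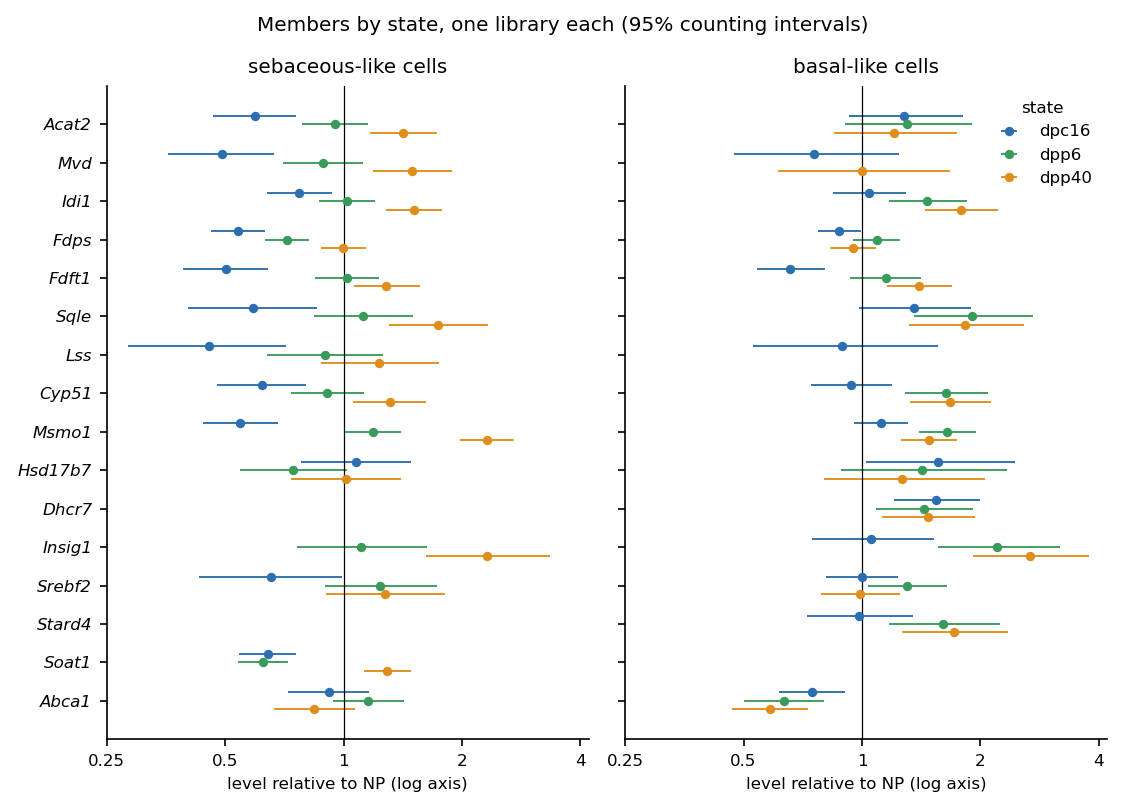
Level relative to the NP library (log axis) of 16 members in sebaceous-like (left) and basal-like (right) cells at dpc16, dpp6 and dpp40, with 95% intervals for counting error and only where the higher state had at least 50 UMIs. In sebaceous-like cells the dpc16 points lie left of 1 for most members, and in basal-like cells Insig1, Sqle, Cyp51 and Stard4 lie right of 1 at dpp6 and dpp40.

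Basal-like cells showed another order. Their enzyme sum was 4.30 at NP, 4.53 at dpc16, 5.12 at dpp6 and 5.23 at dpp40. Hmgcs1 made up the dpc16 excess, since the sum without it was 3.20 at NP and 3.12 at dpc16. At dpc16 Hsd17b7 and Dhcr7 were at least 1.5 times higher than at NP and Fdft1 as much lower, among 26 members with enough UMIs, where 4.34% and 6.85% of all genes were. After birth, 5 of 24 members at dpp6 and 5 of 25 at dpp40 were at least 1.5 times the NP level, where 5.29% and 3.51% of all genes were. Insig1, itself an SREBP target, held 0.0681 at NP, 0.0720 at dpc16, 0.150 at dpp6 and 0.182 at dpp40. It stood at 2.21 times at dpp6 (1.56 to 3.19) and 2.67 times at dpp40 (1.92 to 3.79). Sqle stood at 1.91 and 1.83, Cyp51, the lanosterol demethylase, at 1.64 and 1.67, and Stard4 at 1.61 and 1.71 times. Abca1 held 0.241, 0.180, 0.153 and 0.141 from NP to dpp40, highest at NP. It stood at 0.63 times NP at dpp6 and 0.58 times at dpp40 (0.47 to 0.73), where 3.22% and 2.81% of all genes were lower by the rule. Median depth was 4346 UMIs per basal-like cell at NP, 4918 at dpp6 and 5248 at dpp40, and its part was not tested.

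Of 26 members in late spinous-like cells, 6 were at least 1.5 times higher at dpp40 than at NP, where 3.54% of all genes were, among them Insig1 (1.94 times), Lss (1.69) and Cyp51 (1.61). In granular-like cells at dpc16, 4 of 19 were higher and 1 lower, where 5.26% and 7.58% of all genes were. Fdps stood there at 1.63 times NP (1.46 to 1.83) and Dhcr7 at 0.58 times (0.50 to 0.67).

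Between dpp40 and NP some members lay on 1 side in most classes, in either direction. Insig1 was at least 1.5 times NP in all 7 classes with enough UMIs, Idi1, the isomerase of the isoprenoid arm, in 8 of 10, Msmo1 in 5 of 11 and Cyp51 in 4 of 8. No class with enough UMIs had any of these 4 genes lower at dpp40 than at NP. Abca1 was below NP in all 8 classes with enough UMIs, by at least 1.5 times in 2 of them. Ebp was below NP in 9 of 10 and Fdps in 9 of 12, none of them by 1.5 times. Classes share a library, so these counts are not replicates of the state. Over all cells the enzymes summed to 6.58 at NP, 6.68 at dpc16, 6.95 at dpp6 and 8.01 at dpp40, and 4 of 28 members met the rule at dpp40, where 2.64% of all genes did. Class shares differed between states too. Basal-like cells were 20.1% of cells at NP, 37.2% at dpc16 and 25.7% at dpp40, and late spinous-like cells were 4.56%, 4.29% and 5.43%. The part of class shares in these all-cell values was not tested.

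For pregnancy, bulk and single-cell libraries gave separate measurements of basal cells, with different genotypes and no shared samples. Of the 6 members whose bulk WT dpc16 and NP values did not overlap, 5 lay on the same side of NP in the single-cell basal-like class. Hmgcs1 held 1.41 UMIs per 10000 at dpc16 and 1.10 at NP, a ratio of 1.29 (1.18 to 1.40). Fdft1 held 0.155 at dpc16 and 0.236 at NP, a ratio of 0.66 (0.54 to 0.80), and Fdps 0.463 and 0.529, a ratio of 0.87 (0.77 to 0.99). For Lss the ratio of 0.89 had an interval of 0.53 to 1.56, from 58 UMIs at dpc16 and 20 at NP. Nsdhl stood at 0.90 (0.69 to 1.19), so the intervals of Lss and Nsdhl both included 1. Acat2 lay on the other side at 1.28 (0.92 to 1.81). Over all 27 members tested in bulk, 18 had the same side in both. Of 11 members whose single-cell interval excluded 1, 6 had that side in bulk. These counts have no share over all genes beside them, so how far they depart from other genes is not known. Dhcr7 had opposite sides, at 1.54 times NP in single cells (1.20 to 2.001) and a bulk log2 difference of -0.12.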

How the data were processed

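The authors deposited bulk values as FPKM in 1 table; mm10, TopHat2, cutadapt 1.14, Cuffdiff and Cufflinks 2.2.1 are listed, without roles, per the submitters' processing notes. Bulk columns headed WT were taken as dpc16, since the other headings name NP and cKO, and the depth behind FPKM is unknown. Single-cell files hold deposited raw UMI counts, and the same notes list Cell Ranger 2.2.0. Libraries are numbered by column order.

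Here log2(FPKM + 1), which understates changes of low genes, was fitted with limma 3.58.1 (R 4.3.3; 3 group means, moderated with a trend, two-sided, Benjamini-Hochberg adjusted over all genes tested). Genes averaging under 1 FPKM across the 9 libraries were dropped, leaving 11497. The fit was tested on simulated data. With 3 against 3 libraries an exact permutation test cannot go below 0.1, so none was used. Members and lists were chosen with earlier results of these data known. Values per library are given for members that passed or whose groups were apart with a log2 difference of at least 0.8; Hmgcs1, Fdps, Fdft1, Srebf1, Soat1, Mylip, Npc1 and Cyp27a1 were added after their values were seen.

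Cells needed 200 detected genes and no more than 10% of UMIs from mitochondrial genes. Cells were clustered in scanpy 1.11.5 (2000 variable genes scaled within each library, 30 components, 15 neighbours, Leiden resolution 1), without 83 gene rows of members and companion lists and without a doublet caller. Scaling within libraries was chosen after unscaled clustering had given basal clusters with 89.4% and 94.7% of cells from the dpc16 library. A class needed at least 3 detected markers. UMI counts were summed by class and library, and size calls needed a ratio of 1.5 and 50 UMIs in the higher state. Gene positions are from GENCODE M21 (GRCm38), which held 21886 of the 21950 IDs.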

Additional observations from a re-analysis of the deposited data

Results flagged for a closer look

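Synthesis enzymes in sebaceous-like cells stood at 0.66 times the NP level at dpc16, while 7 of 12 classes had intervals above 1. At dpp6 the sebaceous-like ratio was 0.931, with 8 of 12 classes above 1. These differences between classes were not tested, since each state is 1 library.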

How the results depend on the processing

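No paired analysis was possible because the bulk columns carry a running number of their own and not the replicate numbers of the sample titles. No bulk difference that was followed through the alternative runs changed direction. Only members that passed or whose groups were apart with a log2 difference of at least 0.8 were followed. The order of the sebaceous-like and late spinous-like classes did change. Without the filter on low FPKM, Tbx3 loss gave 87 genes and 0 members past the threshold, pregnancy 9 genes, and Tbx3 cKO against NP 314 genes and 2 members. With only the 6 libraries compared, Tbx3 loss gave 163 genes and 1 member, and Tbx3 cKO against NP 168 genes and 2 members. Leaving out 1 library at a time gave 41 to 406 genes and 0 to 3 members for Tbx3 loss, 5 to 15 genes and 0 members for pregnancy, and 118 to 736 genes and 1 to 5 members for Tbx3 cKO against NP. Tbx3 loss gave 65, 41 and 57 genes without WT dpc16 library 1, 2 or 3, 60, 83 and 406 without Tbx3 cKO library 1, 2 or 3, and 156 without NP library 2. Tbx3 cKO against NP gave 118 and 314 genes without Tbx3 cKO library 1 or 2, 217 and 270 without NP library 2 or 3, and 387 and 332 without WT dpc16 library 1 or 2. Pregnancy gave 8 and 5 genes without NP library 2 or 3, 6 and 9 without WT dpc16 library 1 or 3, and 8 without Tbx3 cKO library 1. The number of genes tested and of libraries fitted differs between these settings, and other causes were not tested.

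In single cells, the enzyme sum over basal-like cells moved for late spinous-like cells to 3.52 under the stricter cell filter, 3.34 without scaling within libraries and 2.78 in cells of 5000 to 10000 UMIs. For sebaceous-like cells, against 4.94, it moved to 4.26 as a mean over cells, 2.55 under the stricter filter, 4.05 without scaling and 4.26 in the depth window. Under the stricter filter late spinous-like cells thus stood above sebaceous-like cells. For these class ratios all 4 of these settings were chosen after seeing the data, and the ratios were about the same at the planned Leiden resolution of 0.6 (3.46 and 4.93). For the states below, the setting without scaling was also added later. In that setting the sebaceous-like class was made of clusters of 918 and 218 cells, against 796 cells in the main clustering. Its values of 4.05 and 0.613 thus describe a different set of cells. Ratios to NP in late spinous-like cells moved at dpc16 to 1.03 as a mean over cells and 1.21 without scaling, and at dpp6 to 1.08 and 1.21. In sebaceous-like cells they moved to 0.793 and 0.613 at dpc16, and under the stricter filter to 0.765 at dpp6 and 1.01 at dpp40. Over all cells they moved to 1.06 as a mean over cells and 1.07 under the stricter filter at dpc16, and to 1.07 as a mean over cells at dpp6. The cause was not tested.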

Other observations

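Sterol hydroxylation and sulfation genes, 5 in the matrices, summed in sebaceous-like cells to 18.9 UMIs per 10000 at NP, 6.28 at dpc16, 13.6 at dpp6 and 24.0 at dpp40. In late spinous-like cells the 13 fatty acid synthesis genes gave 7.69 at NP, 5.90 at dpc16, 8.44 at dpp6 and 9.34 at dpp40, while the cholesterol enzymes there were higher at dpc16 than at NP. Genes that use isoprenoids for prenylation, dolichol and ubiquinone summed in sebaceous-like cells to 3.37 at NP, 3.04 at dpc16, 4.197 at dpp6 and 3.78 at dpp40. In bulk, Cyp27a1, a sterol 27-hydroxylase, held 136, 57.7 and 82.6 FPKM in Tbx3 cKO libraries, against 24.1, 27.3 and 8.87 FPKM in WT dpc16 libraries, a log2 difference of 2.195 ± 0.59 (SE; adjusted p = 0.0866, limma) with no overlap.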
